A study of Mus musculus and Homo sapiens with 22 samples.

Results

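CCL5 and the 3 chemokines CXCL9, CXCL10 and CXCL11 are described here in 22 RNA-seq libraries of breast cancer cells treated with ENMD-2076 or TAK901, compounds known as Aurora kinase inhibitors. The 4 genes were found by symbol among 38924 mouse gene IDs (Ccl5, Cxcl9, Cxcl10 and Cxcl11) and by Ensembl ID among 42713 human ones. MDA-MB-231, a human triple-negative breast cancer line, received DMSO, 2.5 or 5 µM of ENMD-2076, or 1 or 2 µM of TAK901. Cells labelled 4T1, a mouse mammary carcinoma line, received DMSO, the same TAK901 doses, or 1.25 or 2.5 µM of ENMD-2076. Plating preceded the treatment by 24 h and the treatment lasted 24 h. Each group held 2 libraries, and the 4T1 cells had 2 DMSO groups. DMSO 1 and 2 go with the ENMD-2076 libraries by name (set 1) and DMSO 3 and 4 with the TAK901 libraries (set 2). Whether replicates came from separate cultures is not stated, so a p-value here speaks only of the spread between libraries, and that spread may be technical.

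Chemokines are small secreted proteins that direct the migration of leukocytes. CXCL9, CXCL10 and CXCL11 are induced by interferons, with IRF1 among the factors that act on their promoters, and bind the receptor CXCR3 of activated T cells and NK cells. CCL5 (RANTES) acts on receptors that include CCR1 and CCR3, and its gene responds to NF-kB and interferon regulatory factors. In tumours their products are known for the recruitment of effector T cells.

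Depth, as reads counted in genes, was 13.4 to 24.0 M in the libraries of MDA-MB-231, 14.4 to 30.9 M in set 1 and 15.9 to 27.1 M in set 2, where only the TAK901 2 µM pair was shallower (6.00 and 3.75 M). Libraries labelled 4T1 were checked against marker genes: 6 epithelial markers (Epcam, Cdh1, Krt7, Krt8, Krt14 and Krt18) summed to 3010 to 4954 CPM (counts scaled to library size with TMM factors), and 8 markers of T and NK cells to at most 0.316 CPM. At ENMD-2076 2.5 µM 3 B cell markers summed to 6.76 to 6.81 CPM against 0 to 0.0541 in DMSO 1 and 2, all from Cd79a, with Cd79b and Ms4a1 at 0 reads. There 4 endothelial markers summed to 1.39 to 3.27 CPM against 0.27 to 0.472, with Cdh5 at 0 reads. The part of these markers in the results at that dose was not tested. The 2 sets stood apart, and whether they hold the same cells was not tested. Of 5 gut and pancreas markers, Hnf4a, Cdx2, Pdx1 and Vil1 had no read in DMSO 1 and 2, where the 5 summed to 0.236 to 0.324 CPM, against 320 to 333 CPM in DMSO 3 and 4. The ENMD-2076 2.5 µM libraries of set 1 also stood apart, with the long RNA Gm26917 at 2185 and 2004 CPM of the total count against 29.9 to 50.6 in the other set 1 libraries. Set 1 treatments were compared with DMSO 1 and 2, and set 2 treatments with DMSO 3 and 4. Markers of MDA-MB-231 were not analysed here.

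In the mouse genome (GRCm38, the same assembly as mm10) Ccl5 (ENSMUSG00000035042.2) lies on chromosome 11 at chr11:83525778-83530518. The other 3 genes lie side by side on the minus strand of chromosome 5: Cxcl9 (ENSMUSG00000029417.8) at chr5:92321347-92328079, Cxcl10 (ENSMUSG00000034855.7) at chr5:92346638-92348889 and Cxcl11 (ENSMUSG00000060183.6) at chr5:92359544-92365485. The gaps between them are 18.6 and 10.7 kb. Cxcl10 and Cxcl11 sit inside Art3, an ADP-ribosyltransferase gene of the opposite strand. Cxcl10 shares 133 of its 2252 exon bases with Art3, which shares no exon bases with Cxcl11. Cxcl11 shares 1582 of its 3794 exon bases with Gm2673, also on the opposite strand. The sources used here do not give whether counting used strand, and reads of the shared bases cannot be told apart. Art3 itself had 0 to 4 reads per library, and the reads of Gm2673 were not analysed here. Cxcl11 is annotated as a polymorphic pseudogene in this reference, which comes from the C57BL/6 strain.

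The promoter windows of Cxcl10 and Cxcl9 are shown because the neighbours differed in these cells: Cxcl10 had reads in 11 of the 12 mouse libraries and Cxcl9 in none. RefSeq (GRCm38.p6) gives 300 bases for each, from 250 before the start site to 50 from it on, on the minus strand at chr5:92348840-92349139 and chr5:92328030-92328329. Of the 4 members only these had an entry. Capitals mark letters that match one of 4 motifs: the core of the interferon-stimulated response element (ISRE, GAAANNGAAA), the NF-kB consensus, the gamma-activated site (GAS, TTCNNNGAA) and AP-1 (TGANTCA), searched on both strands.
Cxcl10: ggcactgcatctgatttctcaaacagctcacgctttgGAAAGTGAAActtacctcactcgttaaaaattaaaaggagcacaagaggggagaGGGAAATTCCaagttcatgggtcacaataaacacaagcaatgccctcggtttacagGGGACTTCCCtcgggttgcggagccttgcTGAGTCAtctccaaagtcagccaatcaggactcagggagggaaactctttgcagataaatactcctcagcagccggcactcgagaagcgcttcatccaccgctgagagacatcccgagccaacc
Cxcl9: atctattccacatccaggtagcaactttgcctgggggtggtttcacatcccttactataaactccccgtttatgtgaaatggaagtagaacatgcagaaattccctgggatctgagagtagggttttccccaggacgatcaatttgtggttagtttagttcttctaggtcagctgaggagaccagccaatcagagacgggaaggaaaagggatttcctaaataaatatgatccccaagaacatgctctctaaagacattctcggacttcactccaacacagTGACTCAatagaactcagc

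The Cxcl10 window held an ISRE core at bases -213 to -204 from the start site, NF-kB consensus matches at -159 to -150 and -103 to -94, and an AP-1 match at -74 to -68. The Cxcl9 window held an AP-1 match at 32 to 38. No GAS match was found in either, which says only that these letters are not in these windows. Of 32851 promoter windows of the same length 3.44% held the ISRE core, 4.51% the NF-kB consensus, 8.30% the GAS and 7.81% the AP-1 letters. For NF-kB the looser form GGGNNNNNCC was searched first: it matched 50.8% of all windows, the Cxcl10 window also at -104 to -95 and the Cxcl9 window at -130 to -120. The narrower consensus was chosen after those matches had been seen, so its absence from the Cxcl9 window rests on that choice. A match is a description of letters, not of a bound site.

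In MDA-MB-231, CXCL9 and CCL5 were at or near 0. CXCL9 (ENSG00000138755.5) had 0 reads in all 10 libraries, which allows up to 3 reads, or 0.124 to 0.227 CPM, in each. CCL5 (ENSG00000161570.4) had 1 read in each ENMD-2076 2.5 µM library, 2 reads in TAK901 2 µM replicate 1 and 0 in the other 7. Neither gene passed the filter on low counts, so neither was tested. The tables do not list the other CCL5 ID, ENSG00000271503, and whether reads of its locus were counted is not known. Such counts and floors cover counting error only.

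CXCL10 and CXCL11, ligands of CXCR3, were read in MDA-MB-231 and were higher than in DMSO in every treated library. CXCL10 (ENSG00000169245.4) had 16 and 27 reads in the DMSO libraries, or 1.21 and 1.71 CPM. With ENMD-2076 it had 63 and 46 reads at 2.5 µM (2.61 and 3.38 CPM) and 48 and 155 at 5 µM (3.57 and 6.44 CPM). With TAK901 it had 64 and 49 reads at 1 µM (4.49 and 3.39 CPM) and 338 and 173 at 2 µM (25.5 and 11.1 CPM). The TAK901 2 µM libraries were thus above all others, and differed from each other more than any other pair. The group means ran from 1.46 ± 0.354 CPM in DMSO (SD, n = 2) to 18.3 ± 10.2 CPM with TAK901 at 2 µM, with 3.0 ± 0.55, 3.94 ± 0.778 and 5.01 ± 2.03 CPM between them for ENMD-2076 2.5 µM, TAK901 1 µM and ENMD-2076 5 µM. In that order the ENMD-2076 2.5 µM and TAK901 1 µM ranges only just missed each other (3.38 and 3.39 CPM), and the TAK901 1 µM and ENMD-2076 5 µM ranges overlapped.

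CXCL11 (ENSG00000169248.8) was lower still in DMSO, with 0 and 13 reads, or 0 and 0.822 CPM. It had 86 and 23 reads with ENMD-2076 at 2.5 µM (3.56 and 1.69 CPM) and 58 and 131 at 5 µM (4.31 and 5.45 CPM). TAK901 gave 14 and 35 reads at 1 µM (0.982 and 2.42 CPM) and 136 and 106 at 2 µM (10.3 and 6.79 CPM). Every treated library again lay above both DMSO libraries. For neither CXCL10 nor CXCL11 was this set against the share of all genes that separate so, which was not computed. All comparisons with DMSO use the same 2 DMSO libraries. TAK901 at 2 µM was highest and ENMD-2076 at 5 µM next, and their ranges did not overlap.

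**Figure D1:**
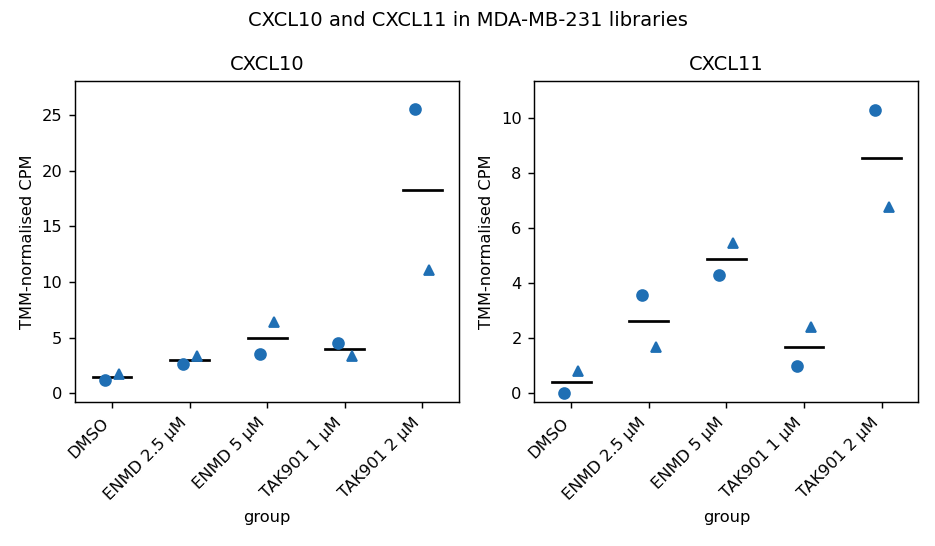
TMM-normalised CPM (vertical axis) of CXCL10 and CXCL11 in each MDA-MB-231 library, by group; circles are replicate 1, triangles replicate 2 and lines the group mean. CXCL10 lies at 1.21 and 1.71 CPM in DMSO and at 25.5 and 11.1 CPM with TAK901 at 2 µM, and CXCL11 at 0 and 0.822 CPM against 10.3 and 6.79 CPM.

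With TAK901 at 2 µM both genes rose. By edgeR's quasi-likelihood test with Benjamini-Hochberg adjustment over 14826 genes, the log2 fold change was 3.63 for CXCL10 (SE 0.44, adjusted p = 4.56e-05) and 4.26 for CXCL11 (SE 0.72, adjusted p = 5.95e-04). Of all tested genes 31.2% passed in this comparison, in either direction, and both members tested did. Both calls held in all 16 alternatives run. The CXCL11 value rests on few DMSO reads: without DMSO replicate 2 the remaining DMSO library has 0 reads and the fitted value was 10.12, without DMSO replicate 1 it was 3.35. For CXCL10 it was 2.90 without TAK901 2 µM replicate 1 and 4.10 without replicate 2.

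With TAK901 at 1 µM neither gene passed. CXCL10 had a log2 fold change of 1.42 (SE 0.47, edgeR adjusted p = 0.0589) and CXCL11 of 1.94 (SE 0.79, adjusted p = 0.12), where 13.9% of tested genes passed. Both had an unadjusted p under 0.05, and DESeq2 called 1 of them, CXCL10 (adjusted p = 0.0432). Leaving out either TAK901 2 µM library brought both past the threshold, with adjusted p of 0.00606 and 0.00323 for CXCL10 and 0.0273 and 0.0245 for CXCL11. Without DMSO replicate 2, CXCL11 alone passed (log2 fold change 7.79, adjusted p = 0.0308).

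Between the TAK901 doses both genes rose from 1 to 2 µM, CXCL10 by a log2 difference of 2.21 (SE 0.40, edgeR adjusted p = 0.0106) and CXCL11 by 2.32 (SE 0.60, adjusted p = 0.0499). In that comparison 3.74% of tested genes passed. The CXCL10 call was lost without TAK901 1 µM replicate 1 or 2 (adjusted p = 0.0728 and 0.146). The CXCL11 call was lost with DESeq2 (adjusted p = 0.296) and without TAK901 1 µM replicate 1 or 2 or any 1 of the 4 ENMD-2076 libraries (adjusted p from 0.065 to 0.25). With only these 2 groups in the fit neither passed (adjusted p = 0.217 and 0.236).

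Both genes also rose with ENMD-2076 at 5 µM, where 4.89% of tested genes passed. The log2 fold change was 1.79 for CXCL10 (SE 0.45, edgeR adjusted p = 0.0371) and 3.46 for CXCL11 (SE 0.73, adjusted p = 0.0166). Both lay near the threshold. The CXCL10 call was lost when any 1 library of DMSO, ENMD-2076 at either dose or TAK901 at 1 µM was left out (adjusted p from 0.0514 to 0.331), with log2 fold changes of 1.27 without ENMD-2076 5 µM replicate 2 to 2.12 without replicate 1. The CXCL11 call was lost without either ENMD-2076 5 µM library or without DMSO replicate 1 (adjusted p from 0.0764 to 0.135), and its fitted value was 9.32 without DMSO replicate 2.

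At 2.5 µM ENMD-2076 neither passed: CXCL10 had a log2 fold change of 1.01 (SE 0.47, edgeR adjusted p = 0.422) and CXCL11 of 2.60 (SE 0.75, adjusted p = 0.169). Only 0.607% of tested genes passed here. CXCL11 had an unadjusted p under 0.05 and CXCL10 did not, and DESeq2 called 0. CXCL11 passed without TAK901 2 µM replicate 1 or 2 (adjusted p = 0.00756 and 0.00626), and its fitted value was 8.46 without DMSO replicate 2. Between 2.5 and 5 µM the log2 differences were 0.79 for CXCL10 (95% interval -0.09 to 1.66) and 0.86 for CXCL11 (-0.36 to 2.08). Neither passed, 0 had an unadjusted p under 0.05, DESeq2 called 0, and 0.0135% of tested genes passed.

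The doses of ENMD-2076 and TAK901 differ, so the compounds were not tested against each other. Across the 10 libraries the log2 CPM of CXCL10 and CXCL11 had a Pearson correlation of 0.799, given as a description, since the libraries share 5 treatments. By this measure CXCL11 was gene 723 of 13102 in likeness to CXCL10, and CXCL10 was gene 246 in likeness to CXCL11. The most like gene IDs were ENSG00000204386.6 for CXCL10 (0.983) and ENSG00000164659.10 for CXCL11 (0.977). The genes these IDs stand for were not analysed here.

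Ccl5 was the most read of the 4 genes in the libraries labelled 4T1. It had 37 and 13 reads in DMSO 1 and 2 (2.00 and 0.766 CPM), 56 and 156 with ENMD-2076 at 1.25 µM (3.85 and 5.02 CPM) and 32 and 3 at 2.5 µM (2.02 and 0.265 CPM). In set 2 it had 32 and 35 reads in DMSO 3 and 4 (1.36 and 1.32 CPM), 19 and 27 with TAK901 at 1 µM (1.09 and 0.921 CPM) and 7 and 6 at 2 µM (1.06 and 1.43 CPM). Both 1.25 µM libraries lay above the other 10, and the 2.5 µM libraries were far apart. The share of all genes that separate so was not computed.

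Ccl5 rose with ENMD-2076 at 1.25 µM, by a log2 fold change of 1.68 (SE 0.46, edgeR adjusted p = 0.00287). Without DMSO replicate 2 the call was lost (1.16, adjusted p = 0.0613), and without DMSO replicate 1 the value was 2.54. In the same libraries 7 myeloid markers summed to 23.7 to 27.7 CPM against 11.4 to 13.3 in DMSO 1 and 2, with Ptprc, Adgre1, Lyz2 and Tyrobp at 0 reads at 1.25 µM. Most of that difference was 1 gene, Csf1r (0.467 ± 0.507 to 10.9 ± 2.84 CPM, SD, n = 2), while Cd68 did not pass (log2 fold change 0.34, edgeR adjusted p = 0.123). The part of these markers in the result was not tested. In bulk RNA, more cells of a type and more RNA per cell cannot be told apart. At 2.5 µM Ccl5 had a log2 fold change of -0.18 (95% interval -1.28 to 0.93, adjusted p = 0.804). That value turned with single libraries, to -2.35 without ENMD-2076 2.5 µM replicate 1 (adjusted p = 0.0147), 0.56 without replicate 2 and 0.68 without DMSO replicate 1.

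Between the ENMD-2076 doses Ccl5 was lower at 2.5 than at 1.25 µM, by a log2 difference of -1.86 (SE 0.48, edgeR adjusted p = 9.58e-04). It was the 1 member of 3 tested that passed, where 73.3% of all tested genes did. The difference ran from -1.11 without ENMD-2076 2.5 µM replicate 2 to -4.02 without replicate 1, and passed in all 19 alternatives. Gm26917 was high in the 2.5 µM libraries and low in those of 1.25 µM. In DMSO 1 and 2 Gm26917 was low too (36.5 and 29.9 CPM of the total count), with Ccl5 at 2.00 and 0.766 CPM. The part of Gm26917 in this result was not tested.

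Cxcl10 was nearly unread in set 1 DMSO. DMSO 1 and 2 had 0 and 1 reads, the ENMD-2076 1.25 µM libraries 4 and 25 (0.275 and 0.805 CPM) and the 2.5 µM libraries 14 and 10 (0.884 and 0.885 CPM). All 4 treated libraries lay above both DMSO libraries, and the share of all genes that do so was not computed. Over the 1 DMSO read, the summed reads scaled to library size were 22.6 times higher at 1.25 µM (95% counting interval 3.74 to 921) and 31.4 times higher at 2.5 µM (5.11 to 1290), intervals that cover counting error only. Cxcl10 passed edgeR's test at both doses, with fitted log2 fold changes of 4.08 (SE 1.11, adjusted p = 0.00305) and 4.66 (SE 1.10, adjusted p = 3.67e-04), values that depend on how a count near 0 is handled. At 1.25 µM the call was lost without ENMD-2076 replicate 2 (2.98, adjusted p = 0.131) or DMSO replicate 1 (3.17, adjusted p = 0.0563), and without DMSO replicate 2 the value was 6.41. At 2.5 µM it held without each library in turn, from 3.74 without DMSO replicate 1 to 7.05 without DMSO replicate 2. With only the 1.25 µM and DMSO 1 and 2 libraries in the fit, Cxcl10 did not pass the filter on low counts. The doses differed by 0.58 (95% interval -0.76 to 1.92), which did not pass.

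Read against all genes, 45.9% of 15375 tested genes passed with ENMD-2076 at 1.25 µM (22.6% higher, 23.2% lower) and 70.3% at 2.5 µM (33.2% higher, 37.1% lower). Of the 3 members tested, 2 were higher at 1.25 µM and 1 at 2.5 µM, shares that in 3 genes cannot be set apart from that background.

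Cxcl11 had few reads in all mouse libraries: 0 and 11 in DMSO 1 and 2, 9 and 2 with ENMD-2076 at 1.25 µM, 3 and 1 at 2.5 µM, 8 and 7 in DMSO 3 and 4, 10 and 12 with TAK901 at 1 µM, and 3 and 1 at 2 µM. The ENMD-2076 and DMSO ranges overlapped. Its log2 fold changes were -0.18 and -1.07 with ENMD-2076 (95% intervals -2.21 to 1.84 and -3.53 to 1.39) and 0.67 and 0.28 with TAK901 (-1.11 to 2.45 and -2.24 to 2.80), none past the threshold. Without DMSO replicate 2 the ENMD-2076 values turned to 5.38 and 4.50, against a DMSO library with 0 reads. Cxcl9 had 0 reads in all 12 libraries, which allows up to 0.0966 to 0.716 CPM in each.

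**Figure D2:**
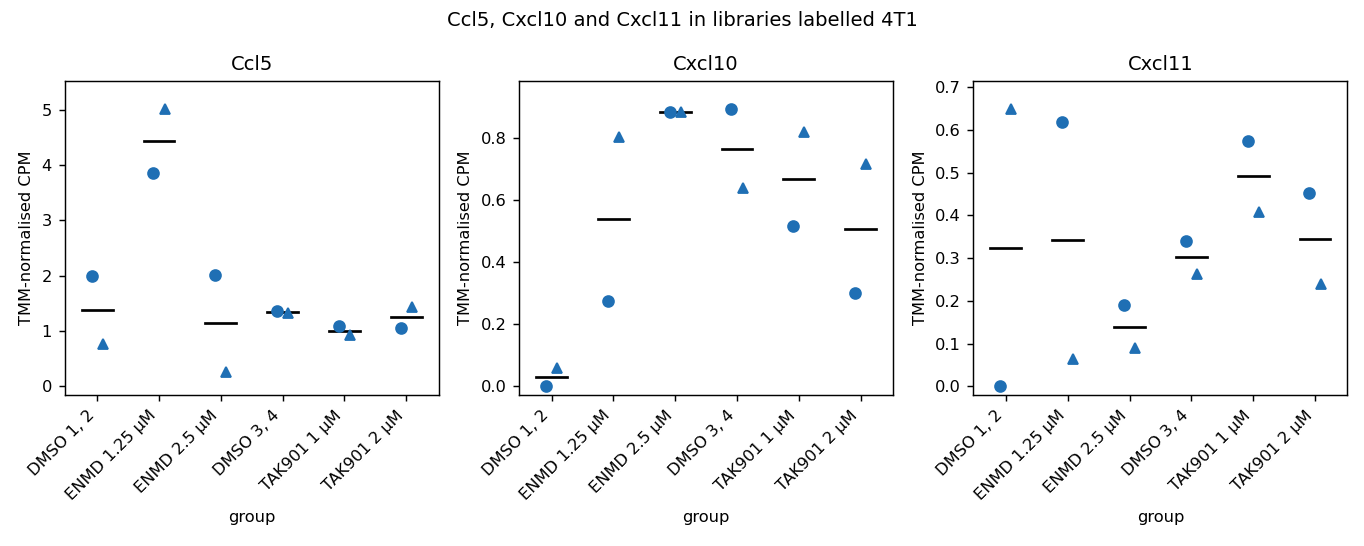
TMM-normalised CPM (vertical axis, one scale per gene) of Ccl5, Cxcl10 and Cxcl11 in each library labelled 4T1, by group; circles and triangles are the first and second replicate and lines the group mean. Ccl5 is highest with ENMD-2076 at 1.25 µM (3.85 and 5.02 CPM), and Cxcl10 lies at 0 and 0.0589 CPM in DMSO 1 and 2 but at 0.893 and 0.640 CPM in DMSO 3 and 4.

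With TAK901 no member passed in the mouse libraries. Cxcl10 had 21 and 17 reads in DMSO 3 and 4, 9 and 24 at 1 µM, and 2 and 3 in the shallow 2 µM libraries. Its log2 fold changes were -0.15 at 1 µM (95% interval -1.40 to 1.09) and -0.69 at 2 µM (-2.47 to 1.09). Ccl5 had -0.42 (-1.45 to 0.60) and -0.15 (-1.49 to 1.20). By edgeR 0 of 3 members passed at either dose or between the doses, 0 had an unadjusted p under 0.05, and DESeq2 called 0. Of all tested genes 9.14% passed at 1 µM (3.97% higher, 5.17% lower), 14.9% at 2 µM (5.63% higher, 9.28% lower) and 0.0715% between the doses. The 5 gut and pancreas markers summed to 367 to 386 CPM in the TAK901 libraries and 320 to 333 CPM in DMSO 3 and 4.

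**Figure D3:**
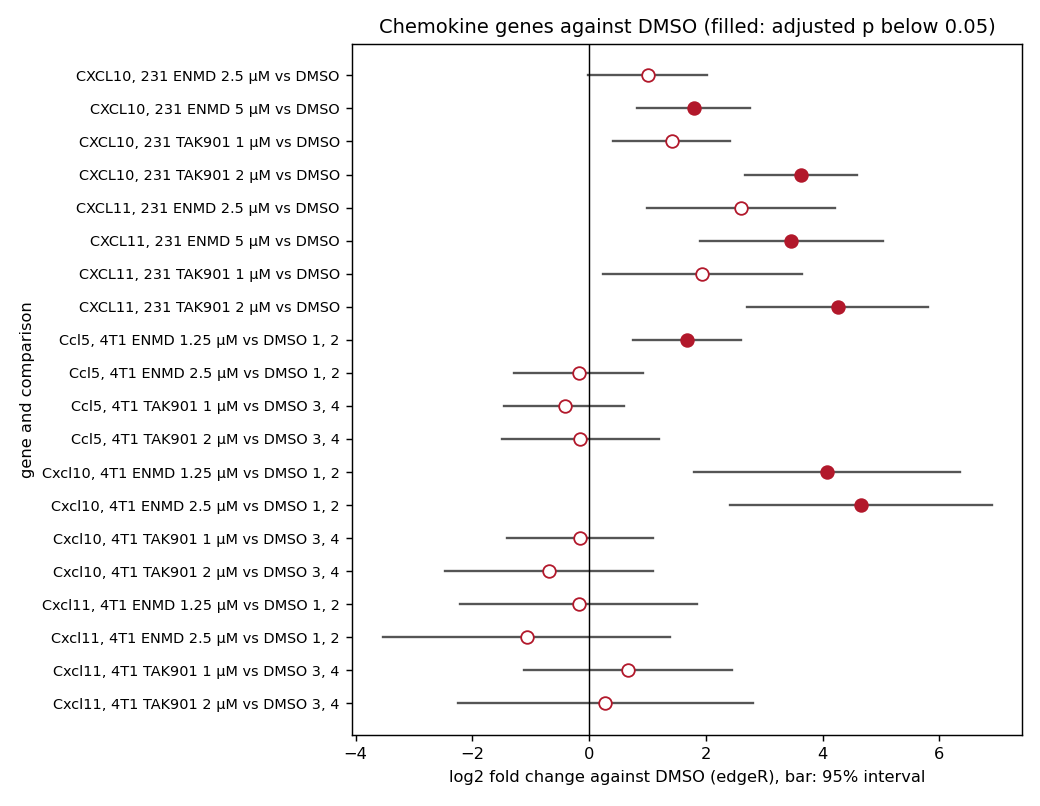
Log2 fold change against DMSO (horizontal axis) of each tested member in each comparison, with its 95% interval as a bar; filled points passed edgeR's adjusted threshold of 0.05. In MDA-MB-231 all 8 values lie above 0, from 1.01 to 4.26, and among the libraries labelled 4T1 the filled points are Ccl5 at 1.25 µM (1.68) and Cxcl10 at both ENMD-2076 doses (4.08 and 4.66).

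Per kilobase of exon, the level of Ccl5 in DMSO 3 and 4 was 1.39 ± 0.0321 CPM per kb (SD, n = 2), of Cxcl10 0.340 ± 0.0795 and of Cxcl11 0.0795 ± 0.0143. In DMSO 1 and 2 the same levels were 1.44 ± 0.909, 0.0131 ± 0.0185 and 0.0854 ± 0.121 CPM per kb. Ccl5 was thus the highest of the 3 in both sets, and Cxcl10 and Cxcl11 changed places, within the spread of set 1. Over the 6 libraries of set 1 the genes most like Ccl5 in log2 CPM were Nox4 (Pearson correlation 0.988), Rabl2 (0.987) and Haus7 (0.985), among 12048 genes. In set 2 they were Doc2g (0.998), Mcfd2 (0.994) and S100a7a (0.993) for Ccl5, and Vps13a (0.991), Pitpnm1 (0.983) and Limd1 (0.981) for Cxcl10. With 6 libraries in 3 groups such values are a description.

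The receptors were nearly unread apart from Cxcr3, receptor of the 3 CXC ligands and the 1 gene tested of 6 receptors and modifiers. Cxcr3 fell with ENMD-2076 from 9.73 ± 0.0748 CPM in DMSO 1 and 2 (SD, n = 2) to 0.464 ± 0.0727 at 1.25 µM and 0.215 ± 0.0535 at 2.5 µM, log2 fold changes of -4.32 and -5.42 (edgeR adjusted p = 3.35e-12 and 1.22e-12). With TAK901 it was at 4.55 ± 0.962 CPM in DMSO, 2.80 ± 0.137 at 1 µM (-0.70, adjusted p = 0.111) and 1.77 ± 0.480 at 2 µM, where it fell (-1.31, adjusted p = 0.0171), a call lost with DESeq2. Ccr1, Ccr3 and Ackr1 had 0 reads in all 12 libraries.

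Genes that carry the interferon signal to these promoters rose with ENMD-2076 at 1.25 µM: 9 of 10 passed higher and 0 lower, with a median log2 fold change of 0.67 against 0.00 over all tested genes, of which 22.6% passed higher. Irf1, a transcription factor of the Cxcl9 to Cxcl11 promoters, rose most (1.32, SE 0.09, edgeR adjusted p = 2.05e-13), from 47.8 ± 2.79 to 120 ± 2.42 CPM. Irf9 did not pass (0.04). Without the ENMD-2076 2.5 µM libraries the counts were again 9 and 0, and with DESeq2 7 and 0.

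At 2.5 µM the same 10 genes split, 2 higher and 8 lower, with a median of -0.43; of all tested genes 33.2% passed higher and 37.1% lower. Irf1 (0.52) and the kinase Jak1 (0.18) were the higher ones, and the kinase Tyk2 had the largest change (-2.26, edgeR adjusted p = 1.41e-17). Without TMM factors the median of all genes at this dose moved from -0.02 to -0.37 and the share of calls that were higher from 47.3 to 34.2%. On that scale 9 of the 10 were lower: Irf1 lost its call and Jak1 was lower. RLE scaling gave 2 higher and 6 lower, and DESeq2 2 and 5.

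With TAK901, 4 of the 10 genes were higher at 1 µM and 5 at 2 µM, with 0 lower at either dose and medians of 0.22 and 0.27. Of all tested genes 3.97 and 5.63% passed higher at these doses. With DESeq2 3 and 5 of the 10 genes were higher. Ifngr2, a chain of the interferon gamma receptor, had the largest change at both (0.38 and 0.60, edgeR adjusted p = 4.08e-04 and 1.05e-06). Irf1 passed at neither (0.16 and 0.27). Without TMM factors the counts were 5 and 7, and the share of all calls that were higher moved from 43.5 to 53.8% at 1 µM and from 37.7 to 53.8% at 2 µM.

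Of 11 sensors of nucleic acids and their adaptors, 5 were higher and 2 lower with ENMD-2076 at 1.25 µM, where 45.9% of all tested genes passed in either direction. Tlr3, a sensor of double-stranded RNA, rose most (1.53, edgeR adjusted p = 3.67e-15), while the DNA sensor Cgas fell (-1.36, adjusted p = 2.75e-07). At 2.5 µM, where 70.3% of all tested genes passed, 3 were higher and 7 lower, led by the RNA sensor Ifih1 (-2.24, adjusted p = 1.20e-12), and Cgas was higher (1.97). TAK901 gave 2 higher and 0 lower at each dose, led by Tlr3 at 1 µM (0.37) and Irf7 at 2 µM (1.13). Of all tested genes 3.97% passed higher at 1 µM and 5.63% at 2 µM. At 1 µM DESeq2 called 0 of the 11 (3 had an unadjusted p under 0.05). At 2 µM the count was 5 without TMM factors and 4 without both ENMD-2076 2.5 µM libraries.

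Among 11 genes of the NF-kB signal, 5 were higher and 2 lower at 1.25 µM, 3 and 8 at 2.5 µM, 1 and 1 with TAK901 at 1 µM, and 2 and 1 at 2 µM. Of all tested genes 45.9, 70.3, 9.14 and 14.9% passed in these 4 comparisons, in either direction. With DESeq2 the 2.5 µM counts were 3 and 5, and without both ENMD-2076 2.5 µM libraries 2 and 1 passed with TAK901 at 1 µM, as without TMM factors. Nfkbia, the inhibitor that NF-kB itself induces, rose in all 4 comparisons, by log2 fold changes of 1.00, 1.34, 0.41 and 0.57 (edgeR adjusted p from 9.82e-15 to 8.83e-04). Tnfaip3, another NF-kB target, did not follow it: it had the largest change at 1.25 µM (1.02) but was lower at 2.5 µM (-0.76, edgeR adjusted p = 5e-11). With TAK901 Tnfaip3 did not pass (0.11 at 1 µM and 0.04 at 2 µM). The kinase subunit Ikbkg had the largest change at 2.5 µM (-1.69) and with TAK901 at 1 µM (-0.47). Rela, the main activating subunit, had 0.18 (adjusted p = 0.0427), -0.35 (adjusted p = 1.47e-04), 0.04 and 0.11, the last 2 not past the threshold; DESeq2 called Rela in none of the 4 comparisons.

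**Figure D4:**
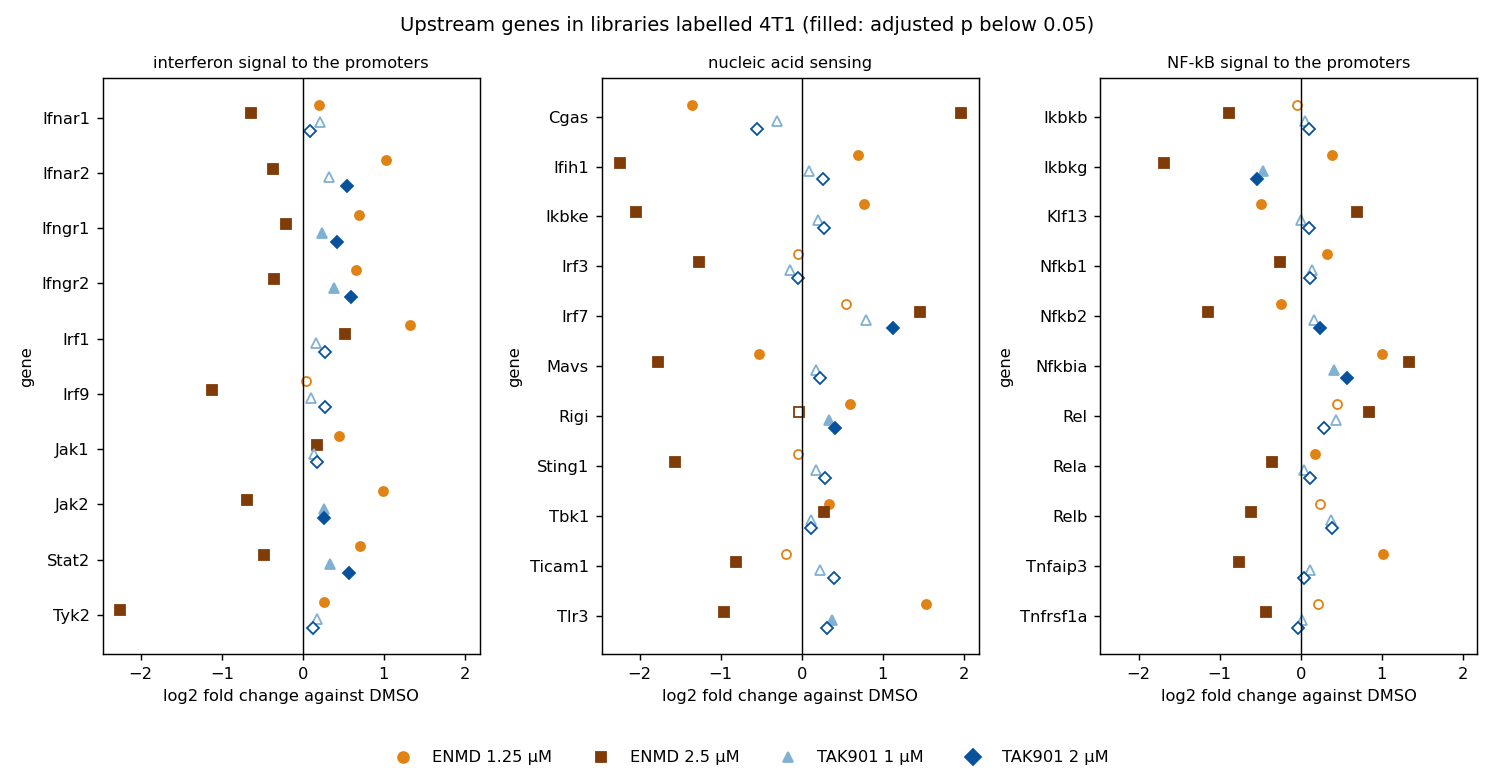
Log2 fold change against DMSO (horizontal axis) of each tested gene of 3 upstream lists in libraries labelled 4T1, by compound and dose; filled markers passed edgeR's adjusted threshold of 0.05. At ENMD-2076 1.25 µM 9 of 10 interferon signal genes are filled and above 0, and at 2.5 µM 8 of 10 are filled and below 0.

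Of 3 genes listed as repressors, the methyltransferases Ezh2 and Dnmt1 and the cytokine signalling inhibitor Socs1, all were lower with ENMD-2076 at 1.25 µM. The largest change was that of Socs1 (-2.20, edgeR adjusted p = 1.13e-06). At this dose 23.2% of all tested genes passed lower. At 2.5 µM Socs1 (-2.96) and Ezh2 (-0.88) were lower and Dnmt1 higher (0.41), a call lost without TMM factors. Of all tested genes 33.2% passed higher and 37.1% lower there. With TAK901 Ezh2 was lower at 1 µM (-0.22, edgeR adjusted p = 0.0443, lost with RLE scaling, with DESeq2 and without TMM factors). At 2 µM Ezh2 (-0.34) and Dnmt1 (-0.33) were lower. Of all tested genes 5.17% passed lower at 1 µM and 9.28% at 2 µM.

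Other chemokines that attract lymphocytes did not move as one: 6 of 15 were tested. Of all tested genes 45.9% passed with ENMD-2076 at 1.25 µM and 70.3% at 2.5 µM, and 9.14 and 14.9% with TAK901 at 1 and 2 µM. With ENMD-2076 at 1.25 µM Cxcl16, ligand of CXCR6, was higher (0.78) and Ccl20, ligand of CCR6, lower with the largest change (-3.36, edgeR adjusted p = 1.18e-07), as was Cx3cl1 (-0.74). At 2.5 µM Ccl17, ligand of CCR4, was higher (25 and 12 reads against 2 and 0 in DMSO 1 and 2) and Cxcl16, Cx3cl1 and Ccl20 were lower. With TAK901 Cxcl16 was the 1 gene that passed, higher at 1 µM (0.48, adjusted p = 0.00105) and 2 µM (0.79, adjusted p = 4.79e-06).

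Of 9 genes beside the members on chromosomes 5 and 11, 6 were tested. Of these, 0 were higher and 3 lower with ENMD-2076 at 1.25 µM, led by Nup54 (-0.79, edgeR adjusted p = 1.24e-09). At that dose 23.2% of all tested genes passed lower. At 2.5 µM, where 70.3% of all tested genes passed, 5 were higher and 1 lower (3 and 1 without TMM factors), led by Ccl9 (5.25), which had 0 reads in DMSO 1 and 2 and 0.246 ± 0.0982 CPM there, a fitted value that is no bound. With TAK901 at 1 µM 9.14% of all tested genes passed, 5.17% lower. Of the 6 neighbours edgeR called 0 there (3 had an unadjusted p under 0.05) and DESeq2 0. At 2 µM, where 9.28% of all tested genes passed lower, Scarb2 (-0.28) and Sdad1 (-0.26) were lower. Both calls were lost with RLE scaling, with DESeq2, without TMM factors and without both ENMD-2076 2.5 µM libraries. Human lists were not analysed here.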

How the data were processed

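RNA-seq was done on 22 libraries in 11 groups of 2. For each library the authors deposited a table of raw counts, 1 row per gene ID, and all values were whole numbers. Per the labels' protocols, RNA was isolated with TRIzol, libraries were made with the NEBNext Ultra kit and sequenced on an Illumina HiSeq. The tools in the submitters' processing notes are HTSeq, TopHat, Bowtie, DESeq2 and FastQC 0.11.3, with mm10 and hg38 as builds. The sources used here do not give other versions, the annotation or the strand setting of the counting. HTSeq summary lines in the tables of set 2 were left out of all totals. The growth protocol and the treatment labels give different ENMD-2076 doses for 4T1, and the labels were followed. Column headers of those tables name no compound and give a dose that differs from both the protocol and the labels.

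Mouse IDs were matched to GENCODE M21 (37607 of 38924), and coordinates are from that annotation. No human name table was used here. Counts were tested with edgeR 4.0.16 (R 4.3.3): genes were kept by filterByExpr, scaled by TMM and fitted by quasi-likelihood with a coefficient per group over all libraries of a line, 14826 genes in MDA-MB-231 and 15375 in 4T1. P-values are two-sided and adjusted by Benjamini-Hochberg over all genes tested, with 0.05 as the threshold. The printed standard errors follow from each fold change and its F value, and levels are group means ± SD of CPM with TMM factors. The fit was tested on simulated data. Likeness is the Pearson correlation of log2 CPM (prior count 2) over genes with a mean of at least 1 CPM, for members with a mean of at least 10 reads. The 3 highest genes are named, or for human IDs the highest.

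The text names the 4 members, the called gene with the largest change of each list, and Irf1, Rela, Nfkbia, Cxcr3 and Art3. Further list genes given beside them were chosen after their values were seen. Some list genes are not reported here and were left out of the list counts. Members and lists were chosen with earlier results of these data known. Alternatives were RLE and total count scaling, no filter, DESeq2 1.42.0, only the groups compared, a replicate block, and leaving out libraries. Correlations of the deviations of equal replicate numbers were -0.0213 to 0.106 in MDA-MB-231 and -0.0129 to 0.0196 in set 1. Set 2 was not checked, and such values do not exclude that libraries were paired. No pair of libraries was identical, with chi-square per degree of freedom of 2.48 to 59.3 within groups and 2.35 to 529 between groups of a line.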

Additional observations from a re-analysis of the deposited data

Results flagged for a closer look

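3 differences between doses passed edgeR's test. In MDA-MB-231, CXCL10 and CXCL11 were higher with TAK901 at 2 than at 1 µM, by log2 differences of 2.21 and 2.32, and in libraries labelled 4T1 Ccl5 was lower with ENMD-2076 at 2.5 than at 1.25 µM, by -1.86. In 2 further cases, at a dose shared with libraries labelled 4T1, every treated library of MDA-MB-231 lay above its DMSO libraries. In these cases every treated library labelled 4T1 lay below the mean of its DMSO libraries. The share of all genes that separate so was not computed. With ENMD-2076 at 2.5 µM CXCL11 had a log2 fold change of 2.60 in MDA-MB-231, which did not pass (edgeR adjusted p = 0.169). That value rests on 0 and 13 reads in DMSO. Cxcl11 had -1.07 in set 1 (interval -3.53 to 1.39). With TAK901 at 2 µM CXCL10 had 3.63 in MDA-MB-231, which passed, and Cxcl10 -0.69 in set 2 (interval -2.47 to 1.09). Both intervals for libraries labelled 4T1 span 0, and their treated and DMSO ranges overlapped, so a fall there is not shown. The 5 gut and pancreas markers summed to 0.236 to 0.324 CPM in DMSO 1 and 2 and 320 to 333 CPM in DMSO 3 and 4. Whether the 2 sets hold the same cells was not tested. The differences from MDA-MB-231 were not tested either.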

How the results depend on the processing

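Both calls with TAK901 at 2 µM in MDA-MB-231 held in all 16 alternatives, and the counts of members called with TAK901 in 4T1 (0) and between the ENMD-2076 doses (0 in MDA-MB-231, 1 in 4T1) did not change in any alternative run. With ENMD-2076 at 2.5 µM in MDA-MB-231 the count moved from 0 to 1 without the filter on low counts, with only the groups compared and without both TAK901 2 µM libraries, and was 0 to 1 over the libraries left out in turn. At 5 µM it was 0 to 2 over the libraries left out. With TAK901 at 1 µM it moved from 0 to 1 with total count scaling, DESeq2 and only the groups compared, to 2 without the filter and without both TAK901 2 µM libraries, and was 0 to 2 over the libraries left out. Between the TAK901 doses it moved from 2 to 1 with DESeq2 and to 0 with only the groups compared, and was 0 to 2 over the libraries left out. In 4T1, ENMD-2076 at 1.25 µM gave 1 in place of 2 with only the groups compared, and 1 to 2 over the libraries left out, and 2.5 µM 1 to 2. With only the groups compared at ENMD-2076 1.25 µM in 4T1, Cxcl10 did not pass the filter on low counts and was not tested. The cause of the other changes was not tested.

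Some values not past the threshold changed sign. Cxcl11 with ENMD-2076 at 1.25 µM became 0.03 with DESeq2, 0.95 without ENMD-2076 1.25 µM replicate 2 and 5.38 without DMSO replicate 2, and at 2.5 µM 4.50 without DMSO replicate 2 (left-out ranges -2.18 to 5.38 and -2.12 to 4.50). Ccl5 at 2.5 µM became 0.56 and 0.68 without ENMD-2076 2.5 µM replicate 2 or DMSO replicate 1 (range -2.35 to 0.68). With TAK901 at 1 µM Cxcl10 became 0.09 and 0.10 without DMSO replicate 3 or TAK901 replicate 1 (range -0.55 to 0.10). At 2 µM, without TAK901 replicate 1, Ccl5 became 0.10 (range -0.35 to 0.10), Cxcl11 -0.32 (range -0.32 to 0.57) and Cxcl10 between the doses 0.07 (range -1.16 to 0.07). Without ENMD-2076 1.25 µM replicate 1 the Cxcl11 dose difference became 1.08 (range -1.97 to 1.08). With 1 library left in a group, that library is assumed to vary like the other groups. Equal replicate numbers did not deviate together in MDA-MB-231 and set 1, which does not exclude pairing. With a replicate block the counts of members called were the same. They were 2 and 2 with ENMD-2076 at 5 µM and TAK901 at 2 µM in MDA-MB-231, and 2 and 1 with ENMD-2076 in 4T1. No block could be fitted against DMSO 3 and 4. Over all genes the block moved the number called from 555 to 794 between the TAK901 doses. Members with under 50 reads per library limit what any test here can show.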
